A study of Arabidopsis thaliana with 5 samples.

Results

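The GDSL-type esterase and lipase family of Arabidopsis thaliana was followed in root cells freed from their walls and in intact roots. A list of 60 loci of the family was matched to the probe sets whose platform annotation names a single gene. This found 51 of them, each with 1 probe set, among 13356 genes named this way on the array. Of the other 9 listed loci, 6 lie on probe sets that name several genes and 3 (AT1G20130, AT1G23500 and AT1G58480) were not matched to a probe set here.

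GDSL enzymes are hydrolases that carry a catalytic serine within a short conserved motif near the start of the protein, and most are secreted. They form one of the large lipase families of plants and act on esters in seeds, flowers, leaf surfaces and roots. In roots, some members join the monomers of suberin, the lipid polyester laid down in the walls of the endodermis and of older outer layers, and other members break it down.

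All 5 samples came from the ecotype Columbia. Seedlings grew for 5 days at pH 5.7 and then spent 24 h at pH 4.6, so that no sample stands for roots kept at standard pH. The 3 samples of sorted protoplasts held root cells whose walls had been digested and which had then been sorted. About 50000 cells went into each RNA preparation. The 2 samples of whole roots were intact, with 1 µg of total RNA each. Whether the replicates are separate cultures is not stated in the labels, so the p-values rest on a spread between samples that may be technical. Preparation and RNA input changed together with the group, so they cannot be told apart. In such bulk samples, fewer cells of a type and less RNA per cell cannot be told apart either.

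The values are MAS5 signals, linear brightness values whose trimmed mean is 250.0 on each ATH1 array. A probe set was tested where its mean log2 signal lay above that of the lowest 40%, which corresponds to a signal of 43.3, called the filter bound here. The tested set held 13648 of the probe sets, 20 family members among them. Fold changes are log2 values of sorted protoplasts minus whole roots from limma, and a change was called at a Benjamini-Hochberg adjusted p under 0.05 over all tested probe sets. Signals of different probe sets depend on their probes and do not rank the transcripts of different genes.

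Members of the family moved in both directions. Among the tested members the deepest falls were those of AT2G23540, AT5G37690 and AT1G74460, with signals of at most 32.85 in sorted protoplasts, against at least 1204 in whole roots. The rises among the tested members were smaller, led by AT5G14450, AT5G03610 and AT2G40250. Of the 20 tested members 8 fell, 5 rose and 7 did not pass. Over all tested probe sets 26.6% fell and 34.1% rose, so 60.6% were called in either direction, close to the 65.0% of the tested members. The median log2 fold change of the tested members was -0.44, beside 0.15 for all tested probe sets. Centring each array on its median moved the value of all probe sets to 0.39, and 6 members were then higher and 7 lower. Against a log2 fold change of 1 (treat in limma), 5 members were lower, beside 8.42% of all tested probe sets, and 0 higher. By that test 1884 of the 13648 tested probe sets were called in either direction, 1149 of them lower, and nothing is read from the 0. These 5 (AT2G23540, AT5G37690, AT1G74460, AT3G16370 and AT3G48460) lay above the filter bound in whole roots only and so passed the filter through that group, and nothing is read from their share. The counts rested on few arrays: without whole-root replicate 1, 3 members fell and 1 rose, and without whole-root replicate 2, 4 fell and 2 rose. The filter let 17 members be tested without whole-root replicate 1 and 18 without whole-root replicate 2. AT5G37690 and AT3G16370 were left out of both fits, so part of the drop in falls came from the filter. No share over all probe sets is given for these fits, so nothing is read from the size of their counts. Without sorted replicate 1 or 3 there were 3 rises. The other 3 of the 8 that fell lay above the bound on every array.

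The filter also removed members that differed. It left out 31 of the 51 members, of which 22 lay at or under the bound on every array. In a fit of all 22746 probe sets with no filter, 13 of the 51 members were lower, 6 were higher and 32 did not pass. Over all probe sets in that fit 19.7% were lower and 20.9% higher, which makes 40.6% in all. The median log2 fold change of the 51 members was -0.47 there. The signals of the 2 groups did not overlap for 29 members, 17 of them lower in sorted protoplasts and 12 higher. Over all probe sets, 30.9% did not overlap in the lower direction and 30.9% in the higher one. Among the 20 tested members the groups did not overlap for the 8 that fell and the 5 that rose, beside 33.1% of all tested probe sets in the lower direction and 42.7% in the higher one.

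**Figure D1:**
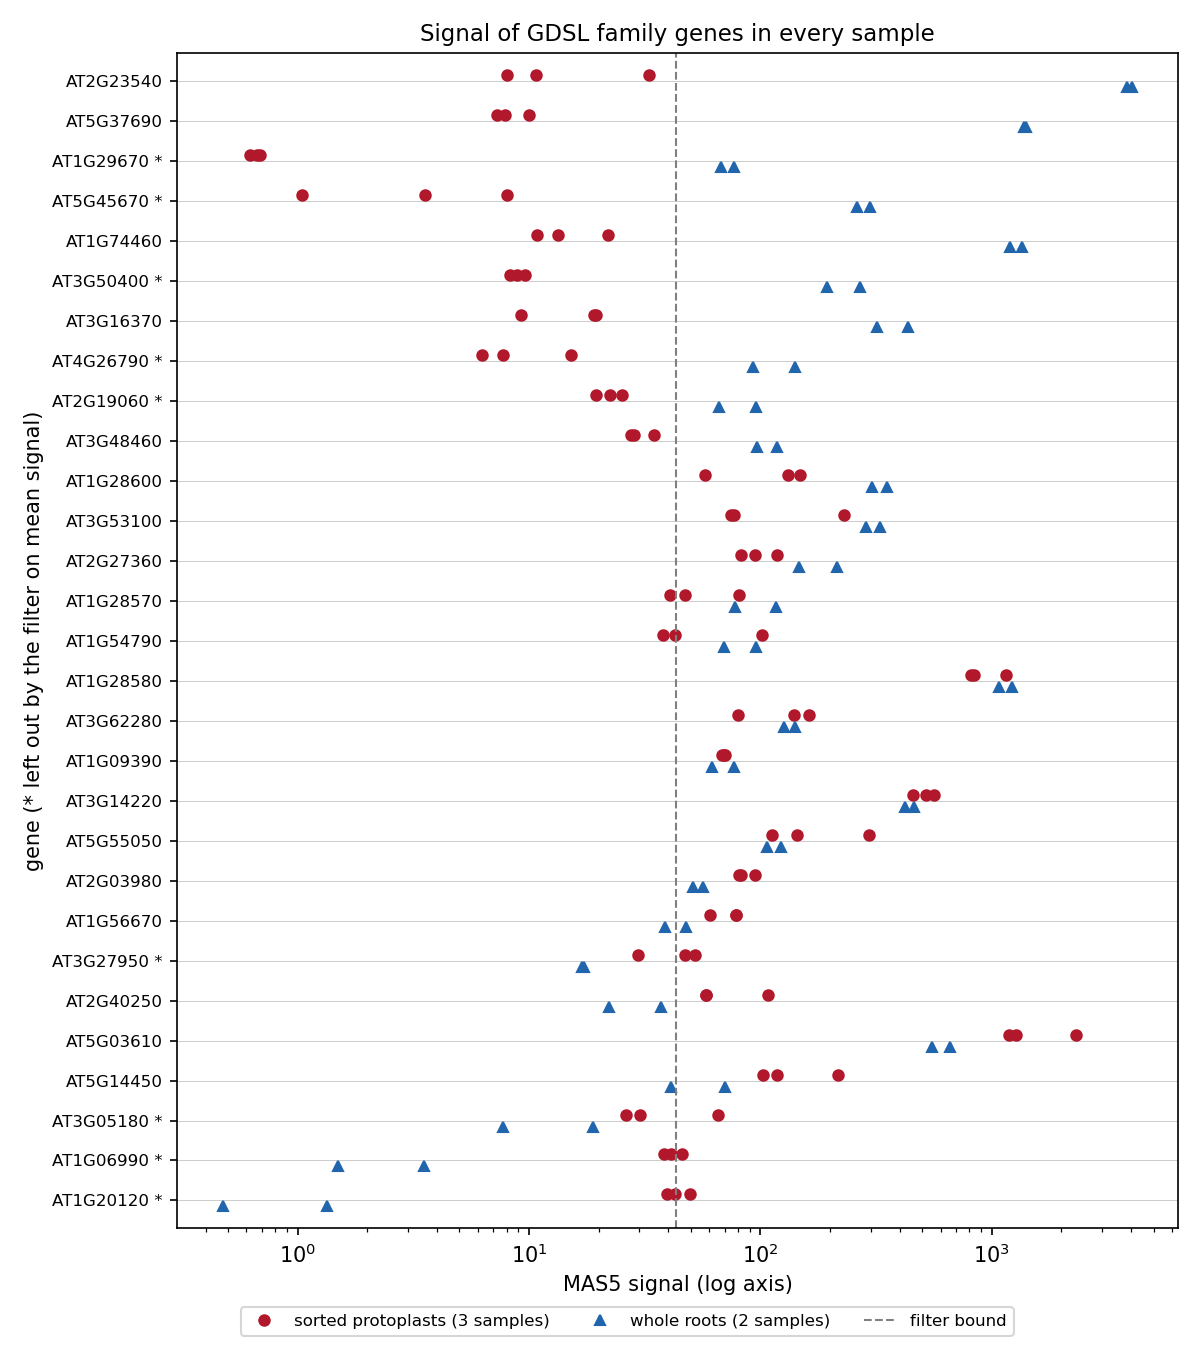
MAS5 signal (log axis) of the 29 members that lay above the filter bound of 43.3 on at least 1 array, with red circles for the 3 sorted protoplast samples and blue triangles for the 2 whole-root samples. Members run from the lowest log2 fold change at the top to the highest at the bottom, and 10 of them have both triangles right of the dashed bound and all circles left of it.

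The deepest falls among the tested members were in AT2G23540, AT5G37690 and AT1G74460, which are known from Arabidopsis as genes expressed together with suberin synthesis genes. AT2G23540 had signals of 32.85, 8.02 and 10.7 in sorted protoplasts, against 4036 and 3829 in whole roots. The whole-root signals differed little from each other, and the groups lay far apart. Its log2 fold change was -8.12 (SE 0.526, adjusted p = 2.1e-05), the 13th lowest of the 13648 tested. Because the sorted signals lay under the filter bound, that fold is imprecise, and the whole-root mean was 90.7-fold above the bound.

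AT5G37690 had signals of 9.99, 7.89 and 7.29 in sorted protoplasts, against 1407 and 1376 in whole roots. Both groups were narrow. The log2 fold change was -7.39 (SE 0.242, adjusted p = 3.5e-06), the 17th lowest, and the whole-root mean lay 32.1-fold above the bound. AT1G74460 had signals of 22.0, 10.8 and 13.4 in sorted protoplasts, against 1204 and 1353 in whole roots. Its log2 fold change was -6.44 (SE 0.315), the 25th lowest, and its whole-root mean was 29.5-fold above the bound. The fitted folds of both are imprecise too, as all their sorted signals lay under it. With 32 added before the log, the log2 fold changes were -6.37 for AT2G23540, -5.14 for AT5G37690 and -4.79 for AT1G74460. The fitted sizes thus depend on how signals under the bound are handled. In the fit of all 22746 probe sets with no filter the ranks from the lowest were 28 for AT2G23540, 41 for AT5G37690 and 73 for AT1G74460. The groups did not overlap in these genes, so all 6 pairs of a sorted sample and a whole root must show the fall. The pairs share the same 5 samples and add no support. Their smallest differences were log2 ratios of -6.87 for AT2G23540, -7.10 for AT5G37690 and -5.77 for AT1G74460. These ratios rest on sorted signals under the bound and give no usable size. Leaving out any 1 sample in a fit with no filter kept the 3 calls (adjusted p of at most 0.00224), while with the filter AT5G37690 was tested in 3 of the 5 such fits.

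Of 46 other listed genes of the cutin and suberin polyester pathway, 2 were matched to a single-gene probe set, and both fell. FACT (AT5G63560), which attaches caffeic acid to the fatty alcohols of suberin-associated waxes, had signals of 12.6, 23.1 and 17.6 in sorted protoplasts, against 886.5 and 905.1 in whole roots. LTPG15 (AT2G48130), a membrane-anchored lipid transfer protein linked to suberin, had 26.9, 6.97 and 5.69 in sorted protoplasts, against 578.6 and 580.9 in whole roots. Both lay above the filter bound in whole roots only and so passed the filter through that group, and nothing is read from both being lower. Over all tested probe sets 26.6% fell. The whole-root mean was 20.7-fold above the bound for FACT (adjusted p = 8.9e-06) and 13.4-fold above it for LTPG15 (adjusted p = 0.000153). Without either whole-root sample, 1 of them was tested and fell. The other genes of the list were not analysed here.

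Root cell type markers gave few points of comparison. Of 40 listed markers, 10 had a single-gene probe set and 9 were tested. The endodermal receptor kinase gene GSO1 had signals of 1173, 505.7 and 506.9 in sorted protoplasts, against 388.7 and 454.0 in whole roots, and did not pass (log2 fold change 0.67, adjusted p = 0.133). It passed as higher after median centring (0.91, adjusted p = 0.0389) and with the replicate number as a block (0.87, adjusted p = 0.0456). Sorted replicate 3 has no whole-root partner in that block, so it adds nothing to the fold change there. GSO1 was at 0.225 (adjusted p = 0.619) once a loess trend of fold change with gene length was removed, called the length correction here. No other endodermis marker on the list was matched, and no phloem marker was. The vascular regulator gene LHW rose (1.34). The formative-division receptor gene ACR4 was also called higher, but lay above the bound in sorted protoplasts only, with a mean 1.83-fold above it. The cortex gene AT1G62510 was called lower (adjusted p = 0.00841) and lay above the bound in whole roots only, with a mean 1.76-fold above it. After the length correction AT1G62510 no longer passed (log2 fold change -0.077, adjusted p = 0.7975). The other cortex gene, CO2, was left out by the filter. It had 25.2, 17.8 and 47.3 in sorted protoplasts, against 44.3 and 17.2 in whole roots, and its groups overlapped. The root hair gene EXPA7 (-0.79) did not pass, but did as lower with the replicate block (adjusted p = 0.0294). The xylem gene GUT2 (0.31) and the root cap gene AT1G65570 (0.81) did not pass. Both shoot genes fell, RCA by a log2 fold change of -3.32 and LHCB4.1 by one of -3.002. RCA had 38.3, 51.1 and 47.1 in sorted protoplasts, against 392.8 and 517.0 in whole roots. LHCB4.1 had 56.1, 60.8 and 45.55 in sorted protoplasts, against 408.9 and 453.8 in whole roots. The sorted signals of both lay near the bound, and RCA was under it in sorted replicate 1. The part of cell type or shoot RNA in the fall of the family's genes was not tested.

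A further 2 genes fell among those above the bound in whole roots only. AT3G16370 had signals of 19.2, 9.25 and 19.4 in sorted protoplasts, against 433.7 and 318.7 in whole roots. The groups were well apart, and the call had an adjusted p of 5.2e-05. Since all sorted signals lay under the bound, the size is given against it, and the whole-root mean was 8.68-fold above. AT3G48460, known as SFAR4 and one of the seed fatty acid reducers, had 27.6, 28.4 and 34.8 in sorted protoplasts, against 118.2 and 96.9 in whole roots. It was also called (adjusted p = 0.000625), and the whole-root mean lay 2.48-fold above the bound.

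The filter on the mean left out 5 more members with the same layout, because their sorted signals were so low. AT1G29670 had 0.685, 0.625 and 0.664 in sorted protoplasts, against 76.8 and 67.7 in whole roots. AT5G45670 had 8.05, 3.54 and 1.05 in sorted protoplasts, against 298.2 and 261.7 in whole roots. AT3G50400 had 8.27, 9.57 and 8.84 in sorted protoplasts, against 193.8 and 268.4 in whole roots. For each of these the groups were far apart, and sorted signals so far under the bound carry no usable size of a fold.

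AT4G26790 had 6.28, 15.1 and 7.69 in sorted protoplasts, against 140.9 and 93.1 in whole roots. AT2G19060 had 19.4, 25.1 and 22.3 in sorted protoplasts, against 66.0 and 96.1 in whole roots. All 5 passed in the fit with no filter, with an adjusted p of at most 0.00425. Of the 5, AT2G19060 kept no call when whole-root replicate 2 was left out (adjusted p = 0.0529). Set against the bound of 43.3, the whole-root means were 6.46-fold higher for AT5G45670 and 5.33-fold higher for AT3G50400, and between 1.67-fold and 2.70-fold higher for the other 3.

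In all, 10 of the 51 members lay above the bound in both whole roots and at or under it in all sorted samples, a layout that 4.7% of all probe sets had. AT2G40250 alone had the opposite layout, above the bound in all sorted samples only, which 2.04% of all probe sets had. A further 10 members were above it on all 5 arrays, as were 51.8% of all probe sets. The remaining 8 members crossed the bound within a group. These counts moved with the bound: at a signal of 20, 7 members lay above it in whole roots only and 5 in sorted protoplasts only, and at 100 it was 6 and 1. No share over all probe sets is given for other bounds or settings, so nothing is read from the size of these counts. With each array centred on its median, or without sorted replicate 1 or either whole-root sample, 2 members lay above the bound in sorted protoplasts only.

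**Figure D2:**
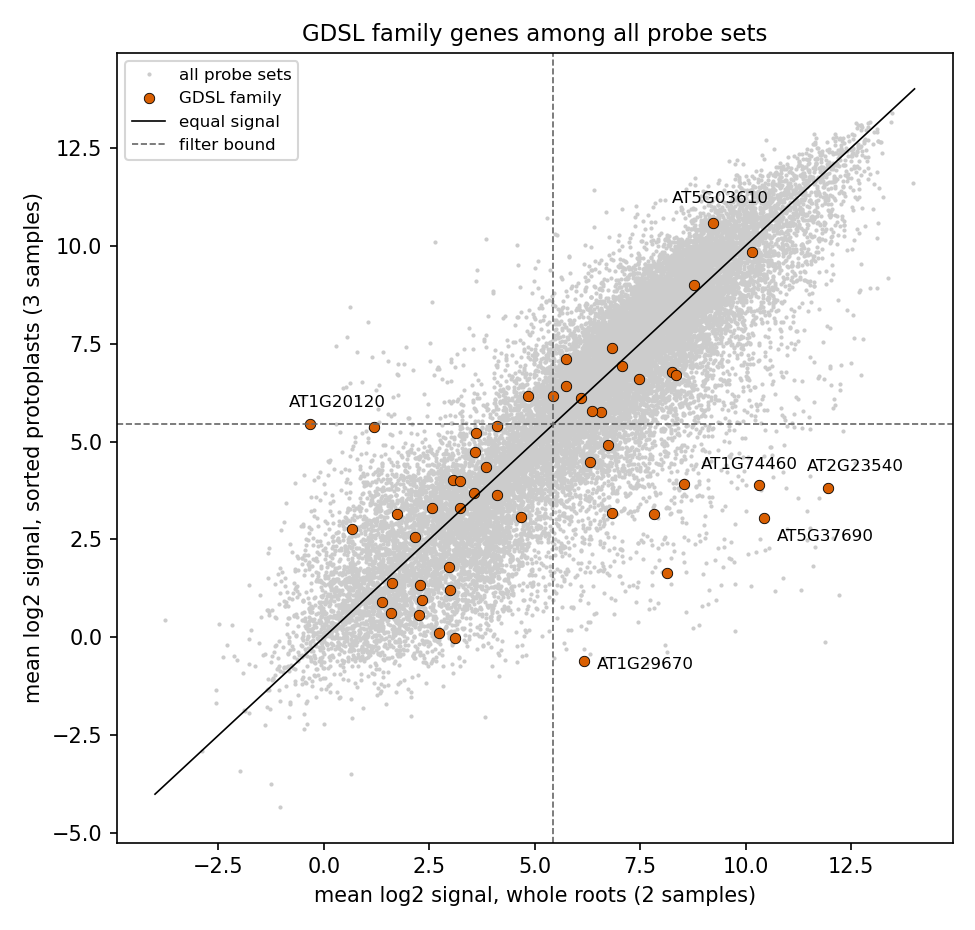
Mean log2 signal in sorted protoplasts (vertical axis, 3 samples) against whole roots (horizontal axis, 2 samples), with grey dots for all 22746 probe sets, orange dots for the 51 members, a solid line for equal signal and dashed lines at the filter bound. AT2G23540, AT5G37690 and AT1G74460 lie at the lower right, and AT5G03610 lies above the line.

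Moderate falls were seen for 3 members with signals above the bound on every array. AT1G28600 had 57.3, 131.7 and 148.6 in sorted protoplasts, against 352.6 and 303.7 in whole roots. The sorted samples were spread but stayed below both whole roots, with a log2 fold change of -1.65 (SE 0.386, adjusted p = 0.00691). AT3G53100 had 228.8, 74.7 and 77.0 in sorted protoplasts, against 287.2 and 327.4 in whole roots, a log2 fold change of -1.485 (SE 0.458, adjusted p = 0.0232). Sorted replicate 1 was close to whole roots in this gene, and the other two were not. AT2G27360 had 117.5, 82.5 and 94.7 in sorted protoplasts, against 146.7 and 213.5 in whole roots (log2 fold change -0.865, SE 0.2465, adjusted p = 0.0168).

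These moderate calls rested on few arrays. AT1G28600 did not pass without whole-root replicate 1 (adjusted p = 0.0640). AT3G53100 passed when sorted replicate 1 was left out and missed the threshold when any other sample was, with an adjusted p between 0.0561 and 0.1325. AT2G27360 missed it when replicate 2 of the sorted protoplasts (adjusted p = 0.0516) or of the whole roots (adjusted p = 0.151) was left out, and after median centring (adjusted p = 0.0511).

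Among the tested members 3 genes led the rises. AT5G03610 had signals of 2315, 1276 and 1185 in sorted protoplasts, against 549.2 and 660.5 in whole roots. Sorted replicate 1 was the highest, and all sorted samples lay above both whole roots, with a log2 fold change of 1.33 (SE 0.282, adjusted p = 0.00439). AT5G14450 had 217.1, 118.0 and 102.8 in sorted protoplasts, against 41.0 and 70.6 in whole roots, a log2 fold change of 1.36 (SE 0.373, adjusted p = 0.0143). AT2G40250 had 107.4, 58.4 and 57.9 in sorted protoplasts, against 37.2 and 22.3 in whole roots, a log2 fold change of 1.31 (SE 0.3756, adjusted p = 0.0173).

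Sorted replicate 1 was the highest sample in each of those genes. Without it the log2 fold changes of AT5G03610 and AT5G14450 were both 1.03 and their calls held, while AT2G40250 no longer passed the filter. They did not all hold without a whole-root sample. AT5G03610 and AT5G14450 did not pass when whole-root replicate 1 was left out (adjusted p = 0.0505 for AT5G03610 and 0.129 for AT5G14450), nor AT2G40250 when whole-root replicate 2 was (adjusted p = 0.135).

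AT1G56670 and AT2G03980 also rose, by a log2 fold change below 1. AT1G56670 had 78.8, 60.3 and 78.1 in sorted protoplasts, against 47.7 and 38.9 in whole roots (log2 fold change 0.74, SE 0.2545, adjusted p = 0.0356). AT2G03980 had 80.5, 82.1 and 94.6 in sorted protoplasts, against 56.5 and 51.1 in whole roots (log2 fold change 0.67, SE 0.2195, adjusted p = 0.0295). Both calls were lost without either whole-root sample (adjusted p between 0.0666 and 0.176 for AT1G56670, and between 0.0757 and 0.130 for AT2G03980), and with no filter (adjusted p = 0.0738 for AT1G56670 and 0.0607 for AT2G03980). Leaving out sorted replicate 3 also ended both calls (adjusted p = 0.110 for AT1G56670 and 0.108 for AT2G03980), as did leaving out sorted replicate 1 for AT1G56670 (adjusted p = 0.0506) and sorted replicate 2 for AT2G03980 (adjusted p = 0.0652).

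**Figure D3:**
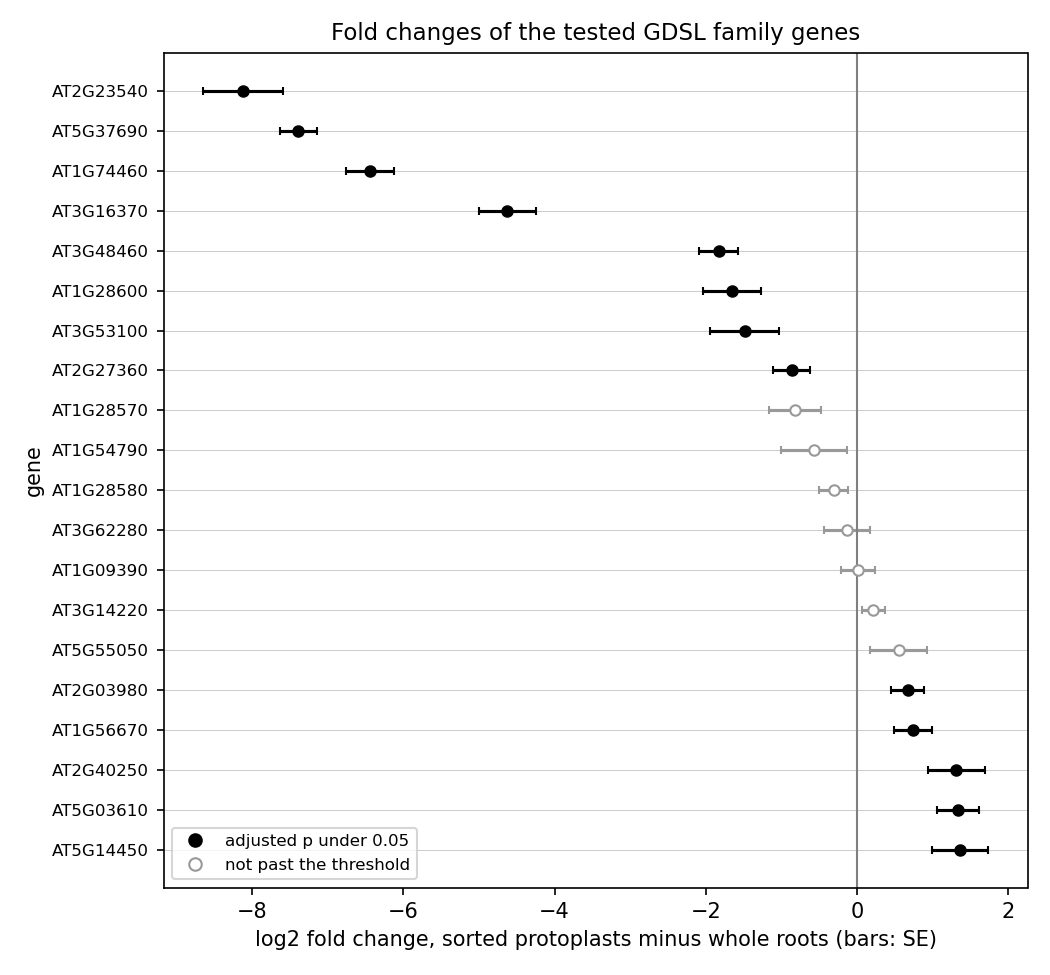
Log2 fold change of sorted protoplasts minus whole roots for the 20 tested members, with SE bars, filled points for an adjusted p under 0.05 and open points for the rest. The falls reach -8.12, and the rises end at 1.36.

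The 7 tested members that did not pass had log2 fold changes between -0.82 for AT1G28570 and 0.55 for AT5G55050. AT1G54790, known as SFAR1, another seed fatty acid reducer, had 101.8, 37.8 and 42.7 in sorted protoplasts, against 69.4 and 95.4 in whole roots. Sorted replicate 1 lay above both whole roots and the other sorted samples below both, so the groups overlapped (log2 fold change -0.57, adjusted p = 0.284). Without sorted replicate 1 the gene passed as lower (-1.02, adjusted p = 0.00771). AT3G14220 had 455.2, 517.0 and 563.8 in sorted protoplasts, against 419.8 and 459.4 in whole roots (log2 fold change 0.22, adjusted p = 0.265). AT5G55050 had 294.3, 111.7 and 144.2 in sorted protoplasts, against 122.8 and 107.2 in whole roots, again with sorted replicate 1 highest. AT3G62280 and AT1G09390 had log2 fold changes of -0.14 and 0.01.

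Members of the family often lie side by side on the chromosome. With at most 3 other genes between neighbours in the RefSeq gene table of assembly TAIR10.1, 16 of the listed loci formed 5 groups, the largest with 8 loci on chromosome 1. Of those 8, 7 had a single-gene probe set and 3 were tested. AT1G28580 had 811.5, 833.3 and 1151 in sorted protoplasts, against 1070 and 1218 in whole roots, and did not pass (log2 fold change -0.31, adjusted p = 0.181). AT1G28570 had 81.2, 40.9 and 47.4 in sorted protoplasts, against 77.9 and 116.3 in whole roots, and did not pass either (log2 fold change -0.82, adjusted p = 0.0728). Their neighbour AT1G28600 was the tested member of the group that fell, as given above.

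AT1G28570 passed as lower when sorted replicate 1 was left out (adjusted p = 0.00510) and after the length correction (-1.14, adjusted p = 0.0255). The difference in fold change between these neighbours was not tested. AT1G28590, AT1G28610, AT1G28640 and AT1G28650 lay at or under the bound on every array. In the pair AT1G29660 and AT1G29670, AT1G29660 had 0.564, 2.13 and 0.787 in sorted protoplasts, against 22.8 and 3.29 in whole roots, under the bound throughout, while AT1G29670 was above it in whole roots. In the pair AT2G19050 and AT2G19060, AT2G19050 had 19.1, 18.3 and 24.2 in sorted protoplasts, against 13.4 and 15.3 in whole roots, and AT2G19060 was above the bound in whole roots. Probes of such close copies can share targets, so a signal may hold more than the gene it is named for.

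**Figure D4:**
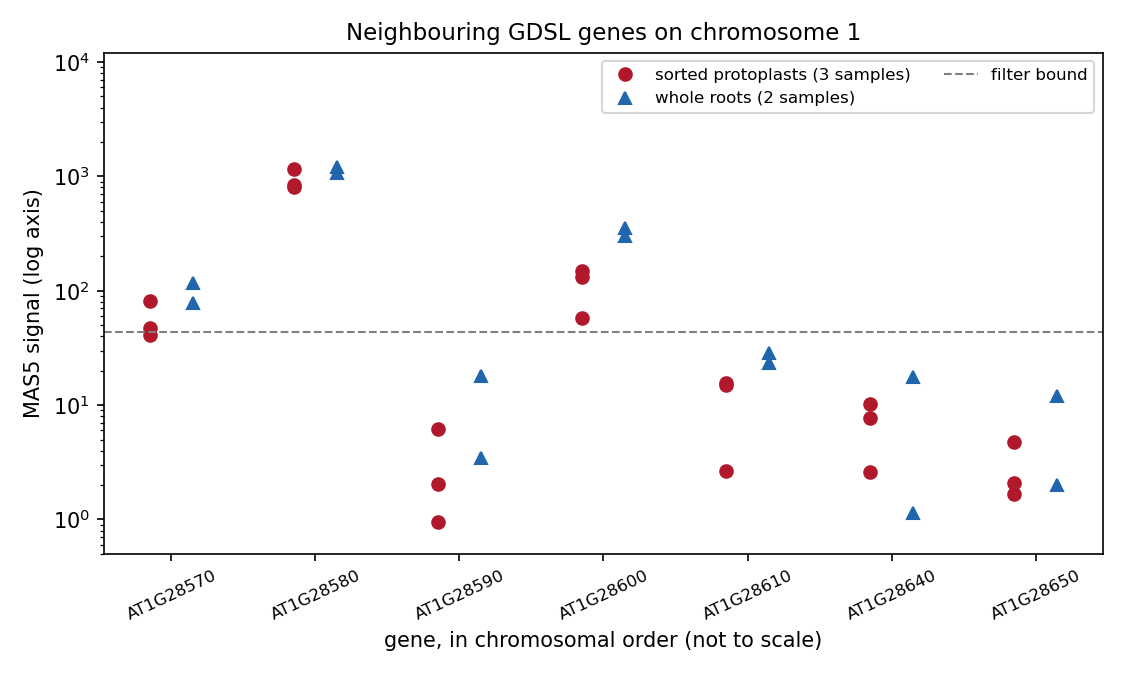
MAS5 signal (log axis) of 7 neighbouring members on chromosome 1 in chromosomal order, with red circles for sorted protoplasts and blue triangles for whole roots. AT1G28600 is separated between the groups, AT1G28580 is not, and 4 genes lie under the dashed bound of 43.3 in every sample.

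The 22 members at or under the bound on every array had signals between 0.287 and 31.1, and no fold is given for them. Over all probe sets 32.3% lay there. They include AT5G33370, the cutin synthase CUS2 of flowers, with 2.74, 7.54 and 2.00 in sorted protoplasts, against 7.98 and 7.65 in whole roots. They also include the seed fatty acid reducers SFAR3 (AT2G42990) and SFAR5 (AT4G18970). AT2G42990 had 11.25, 10.3 and 8.24 in sorted protoplasts, against 2.31 and 15.2 in whole roots, and AT4G18970 had 14.5, 1.98 and 11.02 in sorted protoplasts, against 1.57 and 1.63 in whole roots. The remaining 4 untested members reached the bound on at least 1 sorted array and on no whole-root array. AT1G06990 had 38.1, 40.9 and 45.6 in sorted protoplasts, against 3.51 and 1.495 in whole roots. AT1G20120 had 49.7, 42.9 and 39.5 in sorted protoplasts, against 0.475 and 1.34 in whole roots. Both were well separated at low signal, and both passed as higher in the fit with no filter (adjusted p = 0.000882 for AT1G06990 and 0.000389 for AT1G20120). Their fitted log2 fold changes there, 4.18 for AT1G06990 and 5.78 for AT1G20120, exceeded those of the tested rises but rest on whole-root signals of at most 3.51, so they give no usable size.

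AT3G27950 had 29.6, 52.1 and 47.3 in sorted protoplasts, against 17.2 and 16.9 in whole roots, and passed with no filter (adjusted p = 0.0392). That call was lost when sorted replicate 2 or 3 or either whole-root sample was left out (adjusted p between 0.114 and 0.1365). AT3G05180 had 65.8, 26.1 and 30.3 in sorted protoplasts, against 7.75 and 18.9 in whole roots, and did not pass (adjusted p = 0.0615), but did after median centring (adjusted p = 0.0332).

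The sorted samples were spread in these members. Among the 10 members above the bound on all 5 arrays, the median range between the sorted samples was 0.739 log2 units, beside 0.368 for the 11781 probe sets above it on all arrays. Between the whole-root samples it was 0.1925 for these members and 0.178 for those probe sets. Over all tested probe sets, sorted replicate 1 correlated at 0.954 with sorted replicate 2 and at 0.9565 with sorted replicate 3, which had 0.987 between them. Of the 20 tested members, 13 had their highest sorted signal in replicate 1 and 6 their lowest, beside 40.8% of all tested probe sets with the highest there and 42.6% with the lowest. Of the 10 members above the bound on all 5 arrays, 5 had their highest sorted signal in replicate 1 and 5 their lowest.

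The 3′/5′ signal ratios of control probe sets moved with the groups, as did preparation and RNA input. The 3′/5′ signal ratio of a GAPDH control was 6.73 ± 2.14 in sorted protoplasts (SD, n = 3) and 0.879 ± 0.128 in whole roots (SD, n = 2), and that of a ubiquitin control was 5.46 ± 0.554 in sorted protoplasts (SD, n = 3) and 2.28 ± 0.0383 in whole roots (SD, n = 2). For actin it was 132.9 ± 31.9 in sorted protoplasts (SD, n = 3) and 27.7 ± 4.46 in whole roots (SD, n = 2). Over 7335 tested probe sets with a known gene length, Spearman's rho of fold change with length was 0.321. Over the 20 tested members, which share their arrays, it was 0.110. With the length trend removed, the log2 fold changes were -8.17 for AT2G23540, -7.76 for AT5G37690 and -6.43 for AT1G74460, again from sorted signals under the bound. The calls of AT1G56670 and AT2G03980 were lost with that trend removed (adjusted p = 0.185 for AT1G56670 and 0.521 for AT2G03980), and AT1G28570 gained one, so that 9 tested members were lower. Gene length is not a measure of RNA quality, so the correction does not test it. The part of RNA quality, preparation or RNA input in these results was not tested.

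The carboxylesterases of the CXE family, another group of plant esterases that includes the gibberellin receptors, were read beside the GDSL genes. Of 19 listed genes 14 were found and 10 tested, of which 5 fell, 1 rose and 4 did not pass. Over all tested probe sets 26.6% fell and 34.1% rose, so 60.6% were called, and nothing is read from the count. The median log2 fold change of the tested carboxylesterases was -0.72, beside 0.15 for all tested probe sets. Of the falls, CXE2 (-2.59), CXE18 (-1.86), CXE6 (-1.39) and GID1B (-1.22), a gibberellin receptor gene, lay above the bound on every array. CXE2 had 172.6, 44.55 and 45.9 in sorted protoplasts, against 407.1 and 443.1 in whole roots. Its sorted replicates 2 and 3 thus lay just above the bound. CXE15 was called lower while above the bound in whole roots only, with a mean 6.30-fold above it. CXE15 had 35.4, 23.4 and 22.2 in sorted protoplasts, against 243.5 and 302.4 in whole roots. CXE16 rose (0.59, adjusted p = 0.0123), a call lost with the replicate block (adjusted p = 0.0657) and after the length correction (0.32, adjusted p = 0.119). CXE20 (0.88) did not pass, but did as higher after median centring (adjusted p = 0.0429) and after the length correction (adjusted p = 0.0149), which also called GID1A lower (adjusted p = 0.0356). No test set the 2 families against each other.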

How the data were processed

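Affymetrix ATH1 arrays measured transcripts in 3 samples of sorted protoplasts and 2 of whole roots. The deposited intensity values are linear MAS5 signals, per the submitters' processing notes. They come without detection calls, and the filter bound is a cut on rank, not a limit of detection. The number of arrays limits the precision. Each array's trimmed mean (lowest and highest 2% left out) was compared, and no further normalization was applied to the log2 values.

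After 64 control probe sets and the 40% of the others with the lowest mean log2 value were left out, limma 3.58.1 in R 4.3.3 (lmFit, eBayes with trend) was fitted to group alone. Tables used pandas 2.3.3 and scipy 1.17.1. Genes come from the platform annotation, updated through the RefSeq gene table, and probe sets naming several genes were not tested as members. The fit was tested on simulated data.

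The members, the polyester, carboxylesterase and marker lists and the tests were chosen with earlier results of these data known. Values in every sample are given for the 8 largest rises and falls past the threshold, the 3 brightest members of each group, members with a known role and tested members of neighbouring groups. Others shown in full were chosen after their values were seen.

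Settings also tried were centring on the median, quantile normalization, an added 32 before the log, filters of 0% and 60%, eBayes without trend, the replicate number as a block, treat at a log2 fold change of 1, a loess correction for gene length (span 0.3) and each sample left out. Their combinations with no filter, and other signal bounds, were chosen after seeing the data.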

Additional observations from a re-analysis of the deposited data

Results flagged for a closer look

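Probe sets that name several genes were outside the comparison, and 2 of them name listed members only and were higher in every sorted sample than in both whole roots. The probe set shared by AT2G31550 and AT2G31540 had signals of 56.5, 57.5 and 39.3 in sorted protoplasts, with a mean of 51.1, against 1.44 and 6.39 in whole roots. The probe set shared by AT2G30310 and AT2G30220 had 26.7, 17.0 and 26.0 in sorted protoplasts, with a mean of 23.25, against 1.81 and 0.636 in whole roots. The second lay under the filter bound of 43.3 on every array. Neither signal can be assigned to 1 of its genes.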

How the results depend on the processing

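Of 29 member fold changes tried under the alternatives, 15 kept their side of the threshold wherever they could be fitted, and no called fold change turned its sign. The count of 5 members higher became 3 with the replicate block, 3 with the length trend removed, 1 with the filter at 60%, where 6 members were tested, and 0 against a log2 fold change of 1 (treat in limma, 0 also at an unadjusted p under 0.05). Leaving out 1 sample gave 1 to 4, the lowest without whole-root replicate 1. The count of 8 members lower became 13 with no filter, 5 against a log2 fold change of 1 (8.42% of all tested probe sets were lower by that test) and 2 with the filter at 60%, and leaving out 1 sample gave 3 to 11, the lowest without whole-root replicate 1 (17 members tested) and the highest without sorted replicate 1. The 8273 calls over all probe sets became 1884 against a log2 fold change of 1, 1149 of them lower. They became 3918 with the length trend removed, where 7335 probe sets had a length. Both polyester pathway genes lay below the filter at 60%, which left 0, and leaving out 1 sample gave 1 to 2, since 1 of the genes was then below the filter. The 10 members above the bound in whole roots only became 6 with a bound of 100, where no share over all probe sets is given. Grouping members by protein sequence was not run.

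In fits with no filter, leaving out any 1 sample kept AT2G23540, AT5G37690, AT1G74460, AT3G16370, AT3G48460, AT1G29670, AT5G45670, AT3G50400, AT4G26790, AT1G06990 and AT1G20120 past the threshold, with adjusted p of at most 0.0284. After median centring AT3G14220 also passed as higher (adjusted p = 0.0489). The same replicate numbers do not pair the samples by any label, and deviations from the group means correlated at 0.00570 and 0.00133 within the numbers. With that replicate block, 7 members were lower and 6939 probe sets were called in all. The calls of AT1G56670, AT2G03980, AT2G27360 and AT3G27950 were lost. Sorted replicate 3 has no whole-root partner in the block, so the block fold changes equal those without that sample (1.51 for AT5G03610 in both).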

Other observations

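The other several-gene probe sets that hold listed members did not move together. The one shared by AT1G28660 and ARAB-1, at the end of the chromosome 1 group, had signals of 182.3, 156.0 and 117.2 in sorted protoplasts, against 163.5 and 178.5 in whole roots, and its groups overlapped. AT3G26430 shares its 2 probe sets with ATRZ-1A, which is not on the list. One had 53.0, 36.2 and 34.8 in sorted protoplasts, against 90.1 and 76.3 in whole roots, and was lower (limma log2 fold change -1.03, adjusted p = 0.0142). The other had 516.7, 800.4 and 678.8 in sorted protoplasts, against 653.7 and 510.1 in whole roots, and did not pass (log2 fold change 0.18, adjusted p = 0.488).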
